A study of Homo sapiens with 12 samples.

Results

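The tropomyosin family was examined through the array probes annotated to transcripts of TPM1, TPM2, TPM3 and TPM4. A probe was a member when its RefSeq accession mapped to one of these 4 genes, which gave 23 of the 41000 gene probes on the array for 4 of its 16557 named genes: 6 for TPM1, 2 for TPM2, 11 for TPM3 and 4 for TPM4. The family was singled out because probes of TPM3 differed between control and SRSF2 over-expression in both directions. The members were thus chosen on the difference between conditions, and their values are given as a description. Counts of those past the threshold stand beside the share of all probes, and a p is printed only for the slide, which played no part in the choice.

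The cells were a clone of H358, a human lung adenocarcinoma line, named H358/Tet-On/SRSF2 because SRSF2, a serine and arginine rich splicing factor, stands under a promoter that a tetracycline-type drug switches on. The same clone served both conditions. In 6 arrays the sample is labelled SRSF2 over-expression, which was induced by 1 µg/mL doxycycline for 24 hours. In the other 6 it is labelled control, and no treatment is named. The labels leave unsaid whether doxycycline was given to the control cells. The arrays are one-colour Agilent 44 k arrays, which carry cyanine3-labelled cRNA and no reference channel. The labelled RNA came from 3 labelings of each condition, so the 6 arrays of a condition are partly technical repeats, and which arrays share a labeling is not stated. The 12 arrays lie on 3 slides, each with 2 arrays of both conditions.

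Tropomyosins are coiled-coil dimers that lie end to end along the actin filament and control which proteins can reach it, among them myosin motors, cofilin and the capping proteins of the filament ends. Each of the 4 genes makes several proteins. Across the family this is done through alternative promoters, alternative internal exons and alternative last exons, and not every gene uses all of these. Some isoforms belong to striated or smooth muscle, where they set the calcium control of contraction, and others belong to the cytoskeleton of every cell. Tropomyosin transcripts are a textbook example of exon choice by RNA-binding proteins, so a probe reports only those isoforms that contain its sequence.

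For reference, 24330 probes passed the filter for expression, and their median log2 difference between conditions was 0.01. Signals are given on the log2 scale relative to the 75th percentile of the gene probes on the same array, so that 0 is a signal equal to that percentile. The call of deregulation required a limma adjusted p no higher than 0.05 together with a fold change of 2 or more, which held for 3.68% of the probes upward and 3.31% downward. All 8 epithelial marker genes (among them EPCAM, KRT8 and CDH1) were well above background on the 12 arrays, while 7 of the 9 muscle and mesenchymal marker genes with a probe were not above background on any array. The other 2, MYOD1 and MYOG, were above it on all 12. The probe of SRSF2 itself (A_23_P77776) went against its label: it read 3.96, 4.03, 3.96, 3.74, 3.89 and 3.96 on the control arrays. It read 2.56, 2.50, 2.29, 2.41, 2.52 and 2.51 with the label SRSF2 over-expression. The log2 difference was -1.46 (SE 0.063, adjusted p = 1.7e-09 in limma), and the exact permutation p was 0.00926 with arrays exchanged within slides, two-sided, the smallest that 216 arrangements allow. This is 1 probe, and which part of the transcript it reads is not stated. The paper reports that SRSF2 mRNA was over-expressed in the induced clone by RT-PCR, and it shows a western blot of SRSF2. Neither was analysed here. Every direction below is that of the arrays labelled SRSF2 over-expression.

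All 23 tropomyosin probes were well above background on all 12 arrays and none was saturated. Of the 23, 14 had higher and 9 lower signal in the arrays labelled SRSF2 over-expression, where 51.0% of all probes were higher and 49.0% lower. Direction followed the gene in all but 1 case: the 6 TPM1 probes and both TPM2 probes were lower, the 4 TPM4 probes were higher, and of the 11 TPM3 probes 10 were higher and 1 was lower. Read against the median of all probes, these counts were the same in each of 13 settings for scaling, background correction, filter and block. As absolute directions 2 probes flipped. The TPM1 probe A_24_P44462 reached 0.01 when the arrays were scaled on their spike-in controls, and the TPM3 probe A_32_P29784, at 0.03, was between -0.01 and 0 without slide 2, without control replicate 1 or without replicate 3 of the other condition. That scaling raised the median of all probes by 0.21. In RNA from a whole culture, less transcript per cell and fewer cells that make it cannot be told apart.

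The 2-fold threshold was passed upward by 1 member and downward by 1 member, beside 3.68% and 3.31% of all probes. Both members were probes of TPM3. With limma's adjusted p up to 0.05 and any fold change, 12 members were higher and 9 lower, beside 29.7% and 28.0% of all probes. The arrays of the conditions did not overlap for 10 members that were higher and 5 that were lower, beside 21.2% and 18.9% of all probes. Nothing is read from these shares, since the same contrast chose the family. With spike-in scaling, the counts at any fold change were 10 higher and 2 lower, and with slide or replicate as a block 13 higher and 9 lower.

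**Figure D1:**
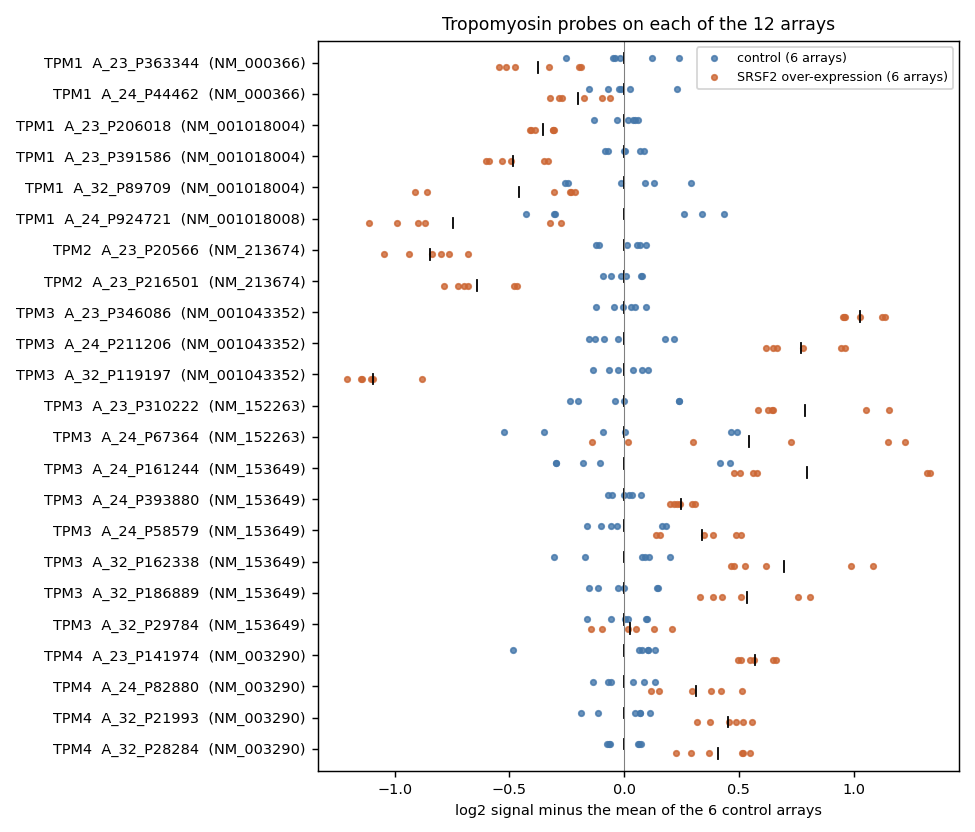
Signal of each of the 23 tropomyosin probes on each array, as the log2 signal minus the mean of the 6 control arrays (x axis), with the gene, probe and accession on the y axis. Points are arrays and the short black bar is the mean per condition; the TPM1 and TPM2 probes lie to the left, TPM4 to the right, and the TPM3 probes to the right except A_32_P119197.

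TPM3 encodes the slow muscle tropomyosin and a set of short cytoskeletal isoforms found in most cells. Its 11 probes are annotated to 3 transcripts, and the 2 that passed the 2-fold threshold, in opposite directions, share 1 of them, NM_001043352. The accession is the label that a probe carries. It does not show which transcripts or which exon the probe matches. The current RefSeq table holds 17 transcripts of TPM3, so these probes may read different subsets of them.

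The first of the 2, A_23_P346086, read -1.87, -1.95, -1.83, -1.78, -1.79 and -1.73 on the control arrays. On the arrays labelled SRSF2 over-expression it read -0.69, -0.70, -0.86, -0.87, -0.80 and -0.87. The 6 values of either condition lay close together, and the conditions were 0.86 apart at their nearest arrays. The difference was 1.03 (SE 0.055, n = 6 and 6), a 2.04-fold higher signal, and within slides 1, 2 and 3 it was 1.22, 0.94 and 0.93. In processed intensity this was 206 to 319 units in control and 547 to 675 units in the other condition. It sits just inside the 2-fold threshold.

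The second, A_32_P119197, read -2.61, -2.68, -2.47, -2.51, -2.57 and -2.44 on the control arrays. With the label SRSF2 over-expression it read -3.69, -3.75, -3.43, -3.65, -3.64 and -3.69. Here the order was turned round: every control array was brighter than every array of the other condition, with 0.74 between the nearest. The difference was -1.10 (SE 0.064, n = 6 and 6), a 2.14-fold lower signal, and within the slides it was -1.07, -1.05 and -1.16. Its processed intensity was 124 to 194 units in control and 76.0 to 92.4 in the other condition, and the local background around its spots was 23 to 38 units.

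The third probe on the same accession, A_24_P211206, read 1.48, 1.52, 1.22, 1.28, 1.18 and 1.15 in control and 2.26, 2.25, 2.08, 1.97, 1.92 and 1.95 in the other condition. It went the way of A_23_P346086, by 0.77 (SE 0.088), and the conditions did not overlap. Within the slides the difference hardly varied, at 0.76, 0.78 and 0.77.

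**Figure D2:**
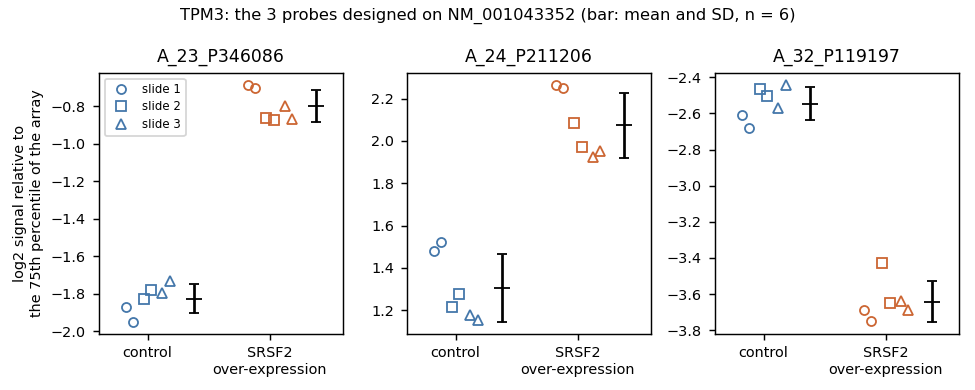
The 3 TPM3 probes annotated to NM_001043352, with the log2 signal scaled on the array's 75th percentile (y axis, a separate range for each panel) by condition (x axis). Symbols are arrays, with the shape giving the slide, and the black bar is the mean and SD of 6 arrays; relative to control, the log2 differences were 1.03 (left), 0.77 (middle) and -1.10 (right).

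A difference between 2 probes taken within an array does not depend on a scaling that shifts the whole array. The log2 signal of A_23_P346086 minus that of A_32_P119197 was 0.72 ± 0.05 (SD, n = 6) in control and 2.84 ± 0.17 (SD, n = 6) in the arrays labelled SRSF2 over-expression. The shift of 2.12 measures how far the 2 probes of 1 accession moved apart, and it was 2.29, 1.99 and 2.09 within the slides. For A_24_P211206 against A_32_P119197 the shift was 1.86. Between the 2 probes that were both higher it was 0.26. This shows unequal change among the probes and not that any of them stayed level.

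The size of both called differences, and whether they passed, depended on how background was treated, while the direction did not. Without background subtraction they were 0.86 for A_23_P346086 and -0.74 for A_32_P119197. With normexp correction they were 0.53 (SE 0.21) and -0.76 (SE 0.38). Neither probe passed the 2-fold threshold under these settings. Both still passed limma's threshold for the adjusted p without background subtraction, and neither passed it with normexp. With spike-in scaling the differences were 1.24 and -0.89. Leaving out 1 array at a time gave 1.00 to 1.05 and -1.14 to -1.07. Without slide 1, A_23_P346086 was at 0.93 and below the threshold.

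NM_152263 is the accession of 2 further TPM3 probes. A_23_P310222 ranged from 2.31 to 2.78 in control (median 2.52) and from 3.13 to 3.70 in the arrays labelled SRSF2 over-expression (median 3.19), a difference of 0.79 (SE 0.12) with no overlap. A_24_P67364 varied more between arrays, from -2.56 to -1.55 (median -2.09) in control and from -2.18 to -0.82 (median -1.53) in the other condition. Its difference of 0.55 (SE 0.26) had the largest error of the family and its conditions overlapped. Within each slide they did not overlap, with differences of 0.71, 0.37 and 0.56. With normexp correction it was 0.04.

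The remaining 6 TPM3 probes carry NM_153649, and all of them were higher on average in the arrays labelled SRSF2 over-expression. A_24_P161244 ranged from -0.24 to 0.52 in control (median -0.08) and from 0.54 to 1.40 in the other condition (median 0.63), a difference of 0.80 (SE 0.20) with only 0.02 between the nearest arrays. A_32_P162338 differed by 0.69 (SE 0.13), from a control median of 2.32 to 2.81, and A_32_P186889 by 0.54 (SE 0.093), from 2.80 to 3.28. Both were free of overlap. A_24_P58579 differed by 0.34 (SE 0.085), from 3.46 to 3.87, with overlap.

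The other 2 probes on this accession had the smallest differences of the gene. A_24_P393880 ranged from 5.26 to 5.41 in control (median 5.34) and from 5.54 to 5.64 in the arrays labelled SRSF2 over-expression (median 5.57), a difference of 0.25 (SE 0.043) without overlap. A_32_P29784 ranged from 5.24 to 5.50 (median 5.41) and from 5.25 to 5.61 (median 5.43), a difference of 0.03 (SE 0.070). The latter was the 1 member of 23 whose sign varied between slides, at -0.04, 0.09 and 0.03. Probes annotated to this single transcript thus differed between conditions by anything from 0.03 to 0.80. The 11 TPM3 probes together differed by -1.10 to 1.03, with a median of 0.55.

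TPM1 encodes the alpha tropomyosin of cardiac, skeletal and smooth muscle and several long cytoskeletal isoforms of stress fibres. Its 6 probes are annotated to 3 of the 58 transcripts that RefSeq lists. All had lower signal in the arrays labelled SRSF2 over-expression, with a median difference of -0.42. The probe A_23_P391586 on NM_001018004 ranged from 3.29 to 3.46 in control (median 3.38) and from 2.77 to 3.04 in the other condition (median 2.86). Its difference was -0.48 (SE 0.061) and the conditions did not overlap.

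A_23_P206018 on the same accession was also separated, from 2.07 to 2.27 in control (median 2.23) and from 1.80 to 1.90 in the other condition (median 1.86), a difference of -0.35 (SE 0.048). A_32_P89709, the third on that accession, differed by a similar -0.46 but less evenly (SE 0.15), from a control range of 0.72 to 1.27 to one of 0.07 to 0.77. The differences of these 3 probes annotated to 1 transcript therefore spanned 0.13.

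The other TPM1 probes overlapped between conditions. A_23_P363344 on NM_000366 went from a control median of 0.04 to -0.34, a difference of -0.37 (SE 0.091). A_24_P44462 on the same accession went from 0.84 to 0.63, a difference of -0.20 (SE 0.070), the smallest of the gene. A_24_P924721 on NM_001018008 had the largest TPM1 difference, -0.74, and a large spread, from -0.16 to 0.70 in control (median 0.24) and from -0.85 to -0.01 in the other condition (median -0.62). Its SE was 0.195 and its differences within the slides were -0.75, -0.30 and -1.18.

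TPM2 encodes beta tropomyosin, which pairs with the TPM1 protein in muscle and also serves in stress fibres. Both of its probes carry NM_213674. A_23_P20566 ranged from -1.75 to -1.54 in control (median -1.60) and from -2.68 to -2.31 in the arrays labelled SRSF2 over-expression (median -2.45), a difference of -0.84 (SE 0.068). A_23_P216501 ranged from 1.07 to 1.24 (median 1.16) and from 0.38 to 0.70 (median 0.47), a difference of -0.64 (SE 0.065). Neither probe overlapped between conditions, and the slides gave -0.75, -0.71 and -1.07 for the first and -0.62, -0.52 and -0.79 for the second. TPM2 had the lowest median difference of the 4 genes, -0.74, and A_23_P20566 lay just outside the 2-fold threshold at 1.79-fold lower.

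TPM4 encodes cytoskeletal tropomyosins that are widely made outside muscle. Its 4 probes are annotated to NM_003290 and all had higher signal in the arrays labelled SRSF2 over-expression, with a median difference of 0.43. A_23_P141974 had the largest difference, 0.57 (SE 0.097). It read 2.27, 1.69, 2.30, 2.27, 2.23 and 2.24 in control and 2.83, 2.72, 2.67, 2.73, 2.82 and 2.68 in the other condition. Control replicate 2 was far below the other control arrays, which lay within 0.07 of each other, and the conditions did not overlap with or without it.

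The other TPM4 probes were close to each other. A_32_P21993 differed by 0.45 (SE 0.065), from a control median of 2.04 to 2.45, and A_32_P28284 by 0.41 (SE 0.066), from 3.04 to 3.48, both without overlap. A_24_P82880 differed by 0.31 (SE 0.077), from 1.32 to 1.66, with overlap. Its differences on slides 1 and 2 were 0.44 and 0.48, and on slide 3 it was 0.02. The 4 TPM4 differences spanned 0.26, the TPM1 ones 0.54 and the TPM3 ones 2.12. The TPM3 span is set by the 2 called probes, for which the family was chosen, and the 10 higher TPM3 probes alone spanned 1.00. As the genes also have unequal numbers of probes, nothing is read from these spans.

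**Figure D3:**
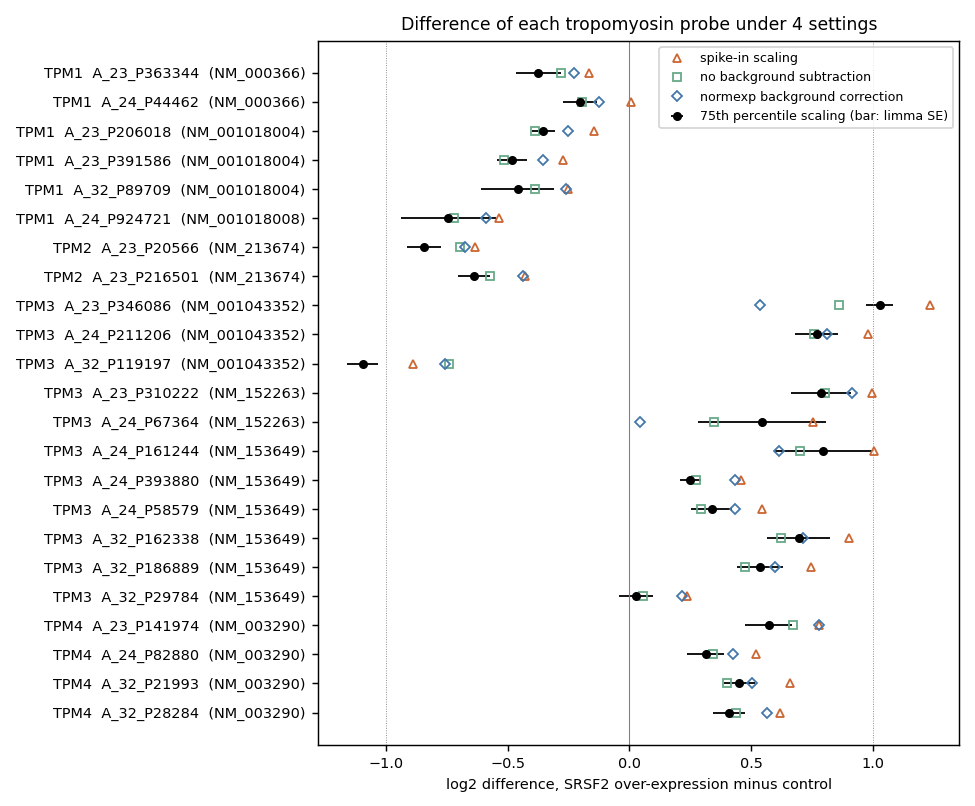
Log2 difference of each tropomyosin probe, SRSF2 over-expression minus control (x axis), under 4 ways of treating background and scale. Black points are the 75th percentile scaling used in the text with the SE from limma, open symbols the other settings and dotted lines a 2-fold difference; the TPM1 and TPM2 points lie left of 0 except A_24_P44462 with spike-in scaling (0.01), and the 2 TPM3 probes beyond the dotted lines fall inside them without background subtraction.

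Some members differed between slides in both conditions. With condition in the model, a term for the slide passed an adjusted p of 0.05 (F test in limma, chosen after the data were seen) for 12 of the 23 probes, beside 51.7% of the 23740 probes with a value on all arrays, a share close to that of the family. By gene these were 7 of 11 for TPM3, 4 of 6 for TPM1, 1 of 4 for TPM4 and 0 of 2 for TPM2. For 9 of the 11 TPM3 probes slide 1 was brighter than the mean of the others. The share of all probes brighter on slide 1 is not given here, so nothing is read from that count. For A_24_P161244 the slide means were 0.95, 0.24 and 0.20 (adjusted p = 7.49e-06 in limma), and for A_24_P67364 they were -1.21, -2.29 and -1.81 (adjusted p = 8.36e-05 in limma). These slide gaps were about as large as the differences between conditions, or larger. The 2 probes past the 2-fold threshold did not pass for the slide term, with slide means of -1.30, -1.33 and -1.30 for A_23_P346086 and of -3.18, -3.01 and -3.09 for A_32_P119197. As both conditions lie on each slide in equal number, the slide means do not enter the differences above.

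**Figure D4:**
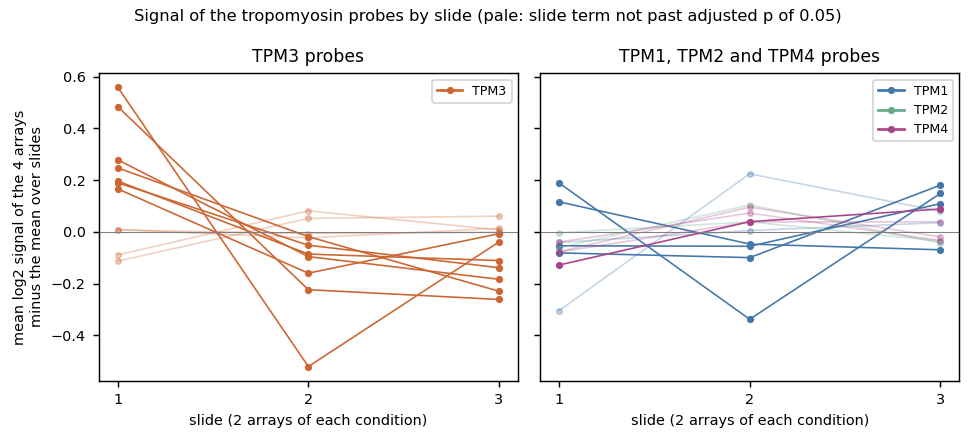
Mean log2 signal of the 4 arrays on each slide (x axis, slide 1 to 3), minus the mean over the slides, for each TPM3 probe (left) and each TPM1, TPM2 and TPM4 probe (right). Pale lines are probes whose slide term did not pass an adjusted p of 0.05; 7 of the 11 TPM3 probes passed, and all 7 are highest on slide 1.

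Of the genes in RefSeq, 12 are named as tropomyosin pseudogenes, 9 of TPM3 and 3 of TPM4, and 1 of them has a probe on the array. This probe, A_23_P55846 for the TPM3 pseudogene TPM3P9, is no member and was looked at after its values were seen. It ranged from -2.51 to -1.39 in control and from -1.60 to -0.66 in the arrays labelled SRSF2 over-expression, a difference of 0.75 (SE 0.23, adjusted p = 0.0149 in limma) with overlap. Its differences within the slides were 0.79, 0.84 and 0.61. How far TPM3 transcripts and those of its copies bind each other's probes was not tested.

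For each of the 2 called TPM3 probes, the 3 probes of other genes with the most similar signal over the 12 arrays were listed among 16026 probes with a gene name. Those closest to A_23_P346086 belonged to DLGAP5, a mitotic spindle protein, WWTR1, the transcriptional coactivator TAZ, and ZFY, a zinc finger protein, each with a Pearson r of 0.995. Those closest to A_32_P119197 belonged to REC8, a meiotic cohesin subunit (r = 0.997), SHB, an adaptor protein of tyrosine kinase signalling (r = 0.997), and PMEPA1, an inhibitor of TGF-beta signalling (r = 0.995). All 6 also differ between the conditions in the direction of the probe they resemble, so the arrays form 2 clusters behind each r.

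A list of 50 genes was chosen with earlier results of these data known. It held actins, proteins that act on the actin filament or on myosin, and transcription regulators of actin genes, among them SRF. Of the 50 genes, 48 had a probe, and 62 of their 80 probes, for 38 genes, passed the filter. With an adjusted p up to 0.05 in limma, 20 probes rose, 12 fell and 30 did not pass, and the median difference was 0.07, beside 0.01 for all probes. Of all probes, 29.7% rose and 28.0% fell by the same threshold. With spike-in scaling 9 rose and 1 fell, with normexp 1 and 2, and with the mean of 2 arrays per slide 6 and 7. By gene, 16 had a probe that rose and 10 a probe that fell, and 2 genes, CFL2 and SRF, are in both counts.

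The 1 probe of the list past the 2-fold threshold was that of ACTA1, the skeletal muscle actin (A_23_P1102). It was well above background on 0 of 6 control arrays and 5 of 6 of the others, so it passed the filter through 1 condition alone and its difference is only bounded, at 1.93-fold or more. CFL2, the muscle-type cofilin that severs filaments, rose by 0.92 (SE 0.066) at A_23_P65401, while its other probe A_24_P373152 fell by 0.47 (SE 0.099). ACTA2, smooth muscle actin, also passed the filter through 1 condition, with 3 of 6 control arrays and 6 of 6 of the others well above background. Its log2 difference was 0.83 (SE 0.082), and -0.11 with normexp correction. The 3 probes of ACTG1, a cytoskeletal actin, differed by -0.05 to 0.02 and did not pass. ACTB, also a cytoskeletal actin, rose by 0.72 (SE 0.20) at A_23_P135769, 0.34 (SE 0.094) at A_24_P226554 and 0.26 (SE 0.048) at A_23_P31323. At A_32_P137939 it differed by 0.31 (SE 0.13) and did not pass. CALD1, which encodes caldesmon, an actin-binding partner of tropomyosin, rose by 0.80 (SE 0.057) at A_23_P42575, and its other probe A_24_P921366 differed by 0.13 (SE 0.075). With normexp correction ACTA1 and CALD1 differed by 0.12 and 0.29 on the log2 scale and did not pass.

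Among the falls was ACTN1, alpha-actinin, a crosslinker of the filament. It fell by 0.76 (SE 0.11) at A_23_P105957 and by 0.74 (SE 0.12) at A_24_P107695, and both stayed below control on every slide. A_23_P105957 did not pass an adjusted p of 0.05 with spike-in scaling (adjusted p = 0.0527 in limma) or with normexp (adjusted p = 0.140 in limma). The list held 0 probes past the 2-fold threshold downward in limma, 0 at an unadjusted p under 0.05 and 0 with the test that the study's methods name.

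RNA-binding proteins that regulate alternative exons formed a second list of 15 genes, among them factors known to act on tropomyosin exons. Of their 25 probes 22 passed the filter: 9 rose, 4 fell and 9 did not pass an adjusted p of 0.05 in limma, with a median difference of 0.08. The shares over all probes are those given for the actin list. With spike-in scaling 8 rose and 0 fell, and with normexp 4 and 0. RBM4, an RNA-binding protein with a role in muscle-type exon choice, was the 1 probe past the 2-fold threshold, at 1.24 (SE 0.057, adjusted p = 2.78e-09 in limma). It read 2.55 to 2.79 in control (median 2.71) and 3.83 to 4.06 in the other condition (median 3.93).

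MATR3, a nuclear matrix RNA-binding protein, rose by 0.95 (SE 0.054), and the related hnRNP genes HNRNPH1 and HNRNPF rose by 0.82 (SE 0.16) and 0.63 (SE 0.11). ESRP2, an epithelial splicing regulator, fell by 0.65 (SE 0.052). Its relative on the list, ESRP1, differed by -0.11 (SE 0.12) at A_23_P259127 and did not pass. ESRP2 did not pass an adjusted p of 0.05 with spike-in scaling (adjusted p = 0.149 in limma) or with normexp (adjusted p = 0.142 in limma). HNRNPF did not pass it with normexp (adjusted p = 0.0718 in limma). QKI, which governs muscle and glial splicing, passed the filter at A_24_P384954 through the control arrays alone, with 5 of 6 of them and 3 of 6 of the others well above background. It differed there by -0.72 (SE 0.17) with overlap, and the threshold was not passed with spike-in scaling (adjusted p = 0.0950 in limma) or normexp (adjusted p = 0.545 in limma). Its other tested probe, A_24_P941322, differed by -0.43 (SE 0.29) and did not pass. PTBP1, the polypyrimidine tract binding protein that represses muscle exons, did not pass the test, at 0.18 (SE 0.085). Of its relatives on the list, PTBP2 fell by 0.33 (SE 0.081) at A_23_P46396 and PTBP3 by 0.22 (SE 0.067) at A_24_P916614. The PTBP3 probes A_23_P9192 and A_24_P295452, at 0.08 and 0.02, did not pass. Downward, 0 probes of this list passed the 2-fold threshold in limma, 0 at an unadjusted p under 0.05 and 0 with the methods' test.

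**Figure D5:**
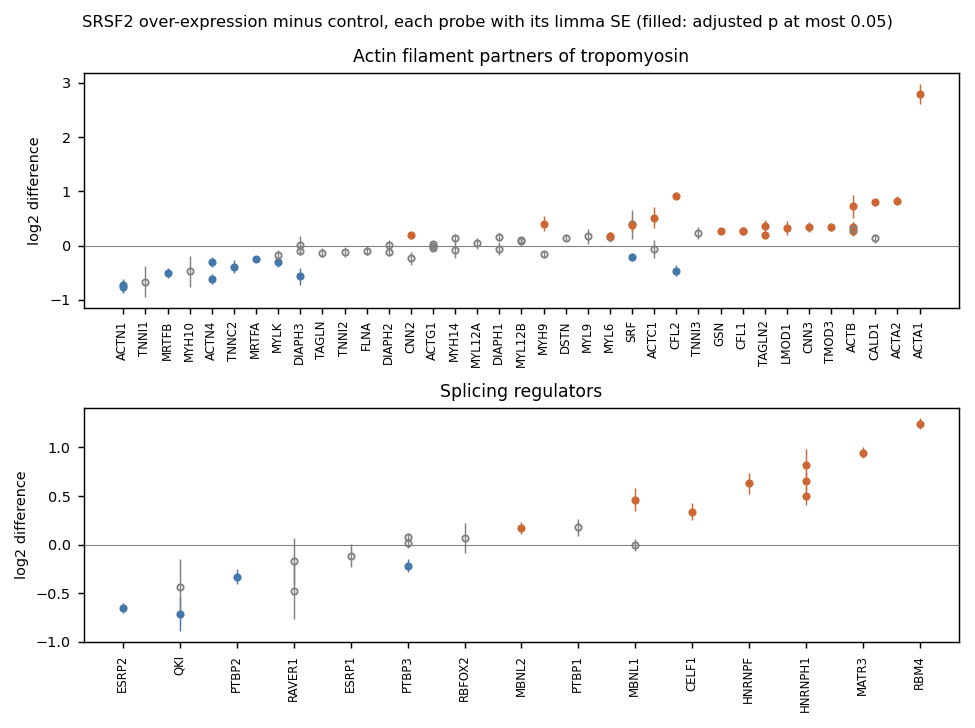
Log2 difference, SRSF2 over-expression minus control (y axis), for the tested probes of the actin filament list, 1 gene left out, (top) and the splicing regulator list (bottom), by gene (x axis) in the order of the gene means. Bars are the SE from limma, filled points passed an adjusted p of 0.05 and open ones did not; the right ends are ACTA1 above and RBM4 below.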

How the data were processed

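The data are 12 Agilent 44 k arrays of one colour. The authors deposited one scanner file per array from Feature Extraction (version 10.7.3.1), with the processed intensity of each spot after background subtraction, its median intensity, its local background and its flags, and a table of log2 values. That table, per the files, matches the log2 processed intensity scaled on the 75th percentile and centred per probe (correlation 0.998). The paper's methods name GeneSpring GX, a 25% limit on missing values and the t-test, adjusted after Benjamini-Hochberg.

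Processed intensities were turned into log2 values, spots of a probe were averaged and the 75th percentile over gene probes of each array was subtracted. Control and outlier spots were left out. Probes were kept if 25% of their values or fewer were missing and if 5 or more of the 6 arrays in either condition read them well above background. A bound on a fold sets the mean of the brighter condition against, for each array of the dimmer one, the lowest signal well above background, or what the probe itself read if that is higher. The comparison used limma 3.58.1 (lmFit, eBayes) under R 4.3.3 and no covariate. On simulated data from 23740 probes, the fit recovered 194 of 200 changed probes and called 1 other.

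Accessions were matched to the GRCh38.p14 RefSeq gene table, which named 23958 of 25868 probes. The files use hg18 and hold no probe sequences, so neither coordinates nor sequences are given. The members, the lists and the alternatives were chosen with earlier results of these data known. Named genes are all member probes, SRSF2 and, of each list, the called probes and the 5 genes with the largest differences past the threshold. The second probes of a gene, PTBP1, PTBP2, PTBP3, ESRP1, ACTG1, ACTB and TPM3P9 were added after their values were seen. Of the actin list, 1 gene enters the counts and is not reported here by name.

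Alternatives were scaling on the median, quantiles or 7 spike-in probes, normexp (offset 50), signals without background subtraction, the table of the authors, other filters, slide or replicate as a block, the mean of 2 arrays per slide, arrays or slides left out, the methods' t-test and a 1.5-fold threshold. Spike-in scaling without slide 1, the slide term and the permutation within slides were added after the data were seen. Arrays with the same replicate number deviated together (correlations 0.28 to 0.64 over 6 pairs), as did arrays of other numbers on one slide (0.33 to 0.65), but not arrays of different slides (-0.48 to -0.05). The numbers thus pair arrays through their slide. Precision is limited by the number of labelings, which the arrays partly repeat, and, where a probe is dim, by its signal over background. The printed SE takes all arrays of a condition as independent, so it may understate the spread between labelings. Whether the labelings came from separate cultures is not stated.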

Additional observations from a re-analysis of the deposited data

Results flagged for a closer look

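In 48 groups of 6 arrays (23 tropomyosin probes and the SRSF2 probe in both conditions), 2 had a single array far from the others, with a gap to the nearest array that, as a share of the range of the group, exceeded Dixon's critical value. Chance gives about 1 in 20 such groups. At the TPM4 probe A_23_P141974, control replicate 2 was the lowest array, at 1.69 against 2.23 to 2.30 for the others, and its gap was 0.888 of the range. At the TPM3 probe A_32_P119197, replicate 3 of the arrays labelled SRSF2 over-expression was the highest, at -3.43 against -3.75 to -3.64, and its gap was 0.660 of the range.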

How the results depend on the processing

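Among the 23 tropomyosin probes, 1 was called up and 1 down. With the replicate block, as with slide as a block, the counts remained 1 up and 1 down, and the 2-fold counts of the lists were the same. At any fold change the actin list had 20 up and 12 down, 24 and 15 with slide and 21 and 15 with replicate as a block, and the splicing list 9 up and 4 down, with 5 down under either block. The count called up was 2 with spike-in scaling, 0 with normexp, 0 without background subtraction, 0 without slide 1 and 5 at 1.5-fold. The count called down was 0 with spike-in scaling, with normexp and without background subtraction, and 4 at 1.5-fold. For the actin list, 1 probe was called up, with 4 under spike-in scaling, 0 without background subtraction, 0 with the stricter filter, 2 without slide 2 and 5 at 1.5-fold. Downward it had 0, with 1 under median scaling, 2 without slide 2, 4 at 1.5-fold and 0 to 1 when leaving out 1 array (1 without control replicate 1 and without replicate 3 or 4 of the other condition). For the splicing regulator list, 1 was called up, with 3 under spike-in scaling, 2 without slide 2 and 5 at 1.5-fold, and 0 down, with 2 at 1.5-fold. The share of all probes past 1.5-fold is not given here, so nothing is read from the 1.5-fold counts. The TPM1 probe A_24_P44462 reversed with spike-in scaling, to 0.0060, and with that scaling and slide 1 left out it was at -0.18. At any fold change, normexp left 2 tropomyosin probes past an adjusted p of 0.05 upward and 0 downward, and the mean of 2 arrays per slide left 9 and 6. The median of all probes moved by -0.11 with normexp. The SRSF2 probe kept its direction, from -1.49 to -1.25. The causes were not tested.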
